A study of Rattus norvegicus with 18 samples.

Results

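The genes described here are C1qa, C1qb and C1qc, which encode the chains of complement C1q, the component C3, the receptors C3ar1 and C5ar1, the regulators Serping1 and Cd59, and C1qtnf1, a relative of C1q. They were chosen by name from a table of hippocampal gene expression, which spells them C1QA, C1QB, C1QC, C3, C3AR1, C5AR1, SERPING1, CD59 and C1QTNF1. All 9 listed symbols were among the 20909 genes measured. RNA was sequenced from the whole hippocampus of 18 adult male rats, 6 from each of 3 lines, with 1 library per rat. Bred High Responder (bHR) and bred Low Responder (bLR) rats come from generation F37 of selective breeding for locomotor activity in an unfamiliar environment, and were sacrificed at P160 to P167 (postnatal days). Bred Intermediate Responder (bIR) rats are a first cross of F37 bHR with bLR rats and were sacrificed at P126 to P134, so line and age cannot be told apart where bIR is compared. The labels give no drug treatment or transgene for any group, and every rat had been scored for locomotion and on the elevated plus maze, which measures anxiety-like behaviour. Whole hippocampus mixes many cell types, so fewer cells of a type and less RNA per cell cannot be told apart in these values.

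Complement is a cascade of plasma and tissue proteins that tags cells and debris for clearance. C1q, built from A, B and C chains, recognises targets and starts the classical pathway, which leads to cleavage of C3, the protein on which all complement pathways converge. In the brain C1q comes mainly from microglia, the resident macrophages, and C1q and C3 are known for tagging synapses that microglia remove. C3ar1 and C5ar1 bind the peptides released from C3 and C5, Serping1 is the C1 inhibitor that blocks the proteases attached to C1q, and Cd59 is a membrane protein that stops assembly of the lytic pore. C1qtnf1 encodes a secreted protein that shares the globular C1q domain but is not a component of the cascade.

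Levels are given in FPM, fragments per M scaled for library depth, and differences as limma estimates on the deposited log2 FPM values. Libraries held from 31.1 to 66.6 M reads, and the mean total was lowest for bHR (39.2 M), then bIR (45.5 M) and bLR (48.7 M). The 10 hippocampal neuron markers, among them Prox1 of dentate granule cells, Wfs1 and Slc17a7, were measured in every library, with summed levels of 3387 to 4745 FPM in bHR, 3856 to 4673 in bIR and 4224 to 4924 in bLR. Of the 9 markers of choroid plexus, the tissue that makes cerebrospinal fluid, transthyretin (Ttr) was used to set 4 libraries apart. Its log2 FPM was above 11 in HR_38, IR_213, IR_248 and IR_261. The split rests on Ttr alone. LR_20, with Ttr at 10.7, was not set apart, although its mean log2 FPM over the 9 markers was 5.33, beside 5.26 in IR_248.

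Setting bHR beside bLR asks which of these genes differ between the selectively bred lines. Of the 9 members, 2 passed an adjusted p under 0.05 (limma, Benjamini-Hochberg over all genes), C1qb and C1qtnf1, both lower in bHR. Over all genes 0.445% passed, 0.253% being lower in bHR. The other 7 did not pass, although C1qa and C1qc stood below bLR by amounts close to that of C1qb. The members' median log2 difference was -0.24, beside 0.00 for all genes. The same 2 genes showed no overlap between the lines, as did 0.909% of all genes (0.502% with bHR lower). In 4 members, all lower in bHR, the unadjusted p was under 0.05, against 9.36% of all genes (5.16% lower). These 4 include the C1q chains, whose levels varied together across rats, so they are not separate observations. The members were chosen with earlier results of these data known, so the shares beside all genes are a description and do not test the set.

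**Figure D1:**
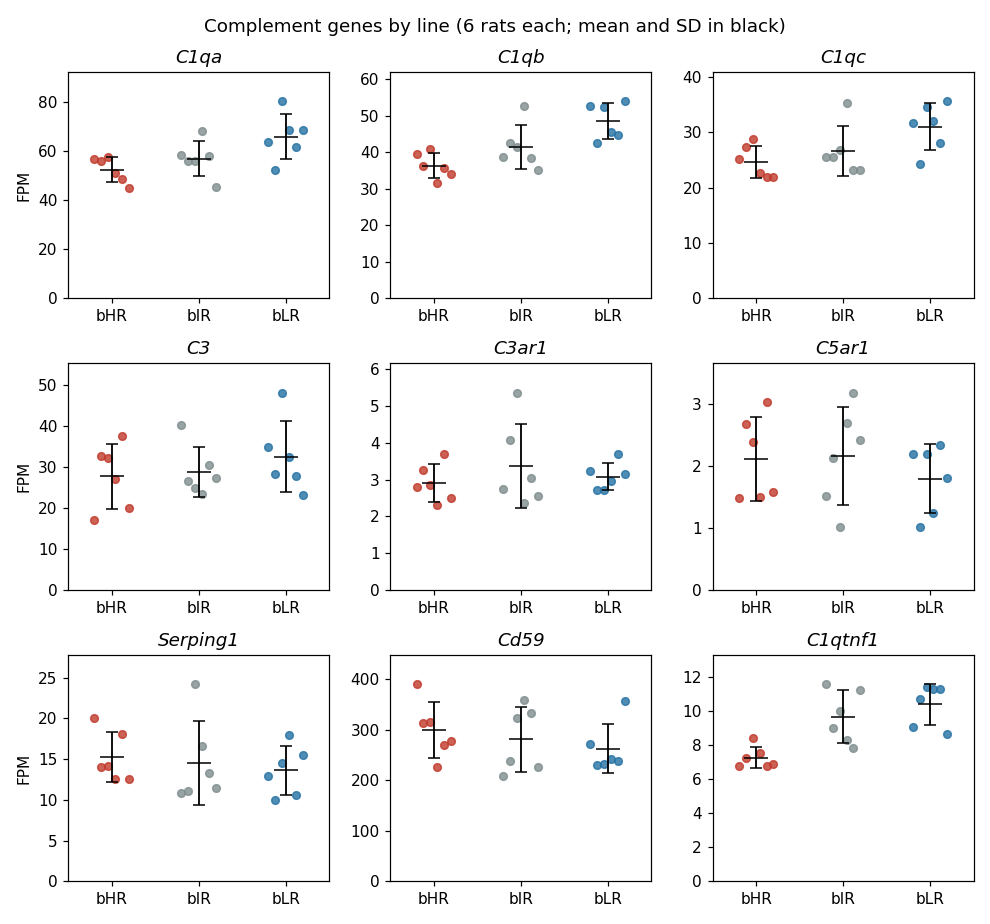
Level of each of the 9 genes (vertical axes, FPM, starting at 0) in bHR, bIR and bLR rats. Points are single rats, 6 per line, and black bars are the mean and SD. C1qb and C1qtnf1 show no overlap between bHR and bLR.

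C1qb, the B chain of C1q, ranged in bHR from 31.4 to 40.9 FPM with a median of 36.0, and in bLR from 42.6 to 53.9 with a median of 49.0. Every bHR rat lay below every bLR rat. Group means were 36.3 ± 3.46 FPM (SD, n = 6) in bHR and 48.6 ± 4.90 in bLR. C1qb was 1.34-fold higher in bLR (log2 difference -0.42 for bHR minus bLR, SE 0.09, limma adjusted p = 0.0382). The call lay near the threshold. It was lost without any one of HR_10, HR_26, HR_34, HR_38, LR_8, LR_20, LR_32, LR_44 or LR_48 (limma adjusted p from 0.0534 to 0.101), and with library depth in the model, where the difference was as large (-0.43, limma adjusted p = 0.110).

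C1qa, the A chain, stood at 44.8 to 57.3 FPM in bHR (median 53.3) and 52.2 to 80.0 in bLR (median 65.9). The ranges overlapped through LR_16, the lowest bLR rat, and 5 of the 6 bLR rats exceeded every bHR rat. The log2 difference was -0.32 (SE 0.10), with an unadjusted p of 0.00327 that did not pass adjustment over all genes (limma adjusted p = 0.208). C1qc, the C chain, stood at 21.9 to 28.8 FPM in bHR (median 23.9) and 24.2 to 35.6 in bLR (median 31.9), again with LR_16 lowest among bLR. Its log2 difference was -0.33 (SE 0.11, unadjusted p = 0.00661, limma adjusted p = 0.269). In each of the 3 chains all bHR rats lay below the bLR median.

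The ratios between the chains moved less than their levels. The log2 ratio of C1qc to C1qa averaged -1.09 ± 0.08 for bHR (SD, n = 6), -1.10 ± 0.14 for bIR and -1.08 ± 0.10 for bLR. That of C1qb to C1qa was -0.53 ± 0.11 in bHR and -0.43 ± 0.15 in bLR, a gap smaller than the larger of the SDs. These ratios depend on transcript length, so they compare lines and not the amounts of the chains.

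The C1q genes lie next to each other, in the order C1qb, C1qc, C1qa, in the RefSeq gene table of the GRCr8 assembly, and all 3 have their highest line mean in bLR. Promoters are shown for C1qa and C1qb because levels of the C1q chains varied together across rats. The promoter of C1qc was not among the sequences available. The 250 bases before each start are from RefSeq, GRCr8, which is not the assembly the reads were aligned to (Rnor_6.0). Each is written 5′ to 3′ on the gene's strand (the minus strand), for C1qa chr5:154419934-154420183 and for C1qb chr5:154407828-154408077. Capitals mark matches, on either strand, to GAGGAA, the PU box bound by the macrophage factor PU.1, and to GGAAGT, a core bound by the wider ETS family.
C1qa: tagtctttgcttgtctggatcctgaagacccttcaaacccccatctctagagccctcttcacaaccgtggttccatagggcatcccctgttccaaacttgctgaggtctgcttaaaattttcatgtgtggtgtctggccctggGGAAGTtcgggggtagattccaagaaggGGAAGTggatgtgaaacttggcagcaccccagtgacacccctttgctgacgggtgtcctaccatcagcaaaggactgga
C1qb: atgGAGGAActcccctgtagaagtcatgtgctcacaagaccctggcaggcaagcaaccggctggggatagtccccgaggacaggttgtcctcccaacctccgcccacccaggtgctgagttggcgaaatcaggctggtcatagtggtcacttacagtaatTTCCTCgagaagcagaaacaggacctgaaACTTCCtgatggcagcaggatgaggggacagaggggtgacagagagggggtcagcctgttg
C1qb held GAGGAA at 2 places and GGAAGT at 1, and C1qa held GGAAGT at 2 places and no GAGGAA. Of all 33469 promoters in that table, in windows of the same length, 23.3% held GAGGAA and 19.2% held GGAAGT, so either match is common. The AP-1 motif TGANTCA (6.34% of promoters) was in neither, and the STAT motif TTCNNNGAA (7.67%) was in C1qa at 1 place. None of the matches in these promoters overlapped another. A match is a description of the letters and was not tested as a binding site.

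Most microglia markers stood in the same direction as C1q, none past adjustment. Of the 20 markers, which include Aif1, Cx3cr1, P2ry12, Tmem119 and Csf1r and none of the C1q genes, 16 were lower in bHR (median log2 difference -0.13). An unadjusted p under 0.05 was found in 4 and 0 were called (limma), against 9.36% and 0.445% of all genes. The summed level of the list ran from 663 to 946 FPM for bHR, from 770 to 945 for bIR and from 829 to 990 for bLR. No marker was at 0 in any rat. The largest differences relative to their error were those of the lysosomal protein Cd68 (log2 difference -0.68, SE 0.24, limma adjusted p = 0.303) and of Laptm5 (-0.19, SE 0.07, limma adjusted p = 0.365). Spi1, which encodes PU.1, stood at 4.69 ± 0.618 FPM (SD, n = 6) in bHR and 5.67 ± 0.481 for bLR rats (limma adjusted p = 0.409).

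With the mean of the microglia markers in the model, the C1q differences were smaller but kept their sign. C1qb then differed by -0.28 (SE 0.08, limma adjusted p = 0.0664), C1qa by -0.22 (SE 0.10, limma adjusted p = 0.240) and C1qc by -0.19 (SE 0.11, limma adjusted p = 0.350). HR_26 had the lowest mean of these markers (4.02 on the log2 scale, the other bHR rats 4.26 to 4.50). Without it, a setting chosen after seeing the data, the C1qb difference in this model was -0.26 (limma adjusted p = 0.0807). On the log2 scale the mean of the C1q genes exceeded that of the microglia markers by 0.81 ± 0.12 for bHR (SD, n = 6), 0.86 ± 0.15 for bIR and 1.02 ± 0.12 for bLR, and the bHR and bLR ranges overlapped (0.70 to 1.03 and 0.87 to 1.19).

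**Figure D2:**
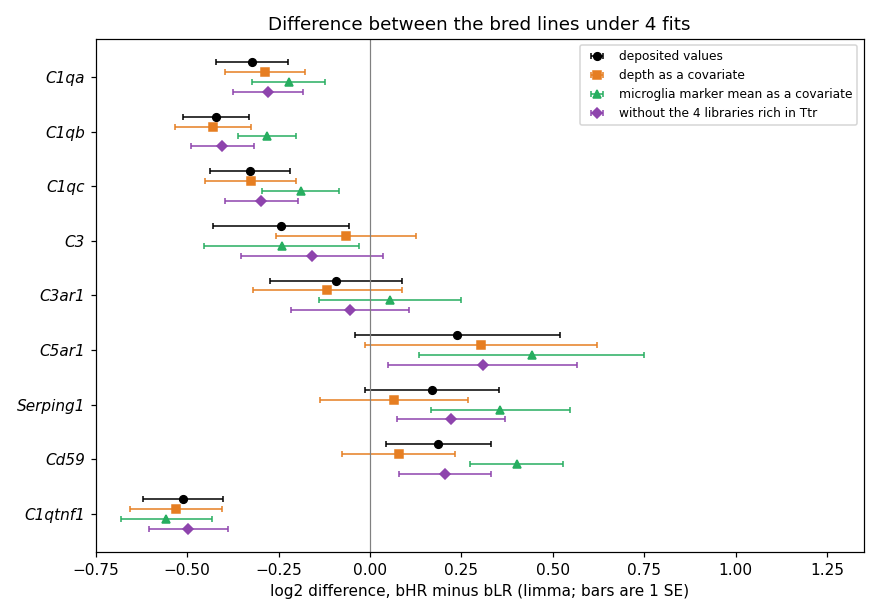
Log2 difference of bHR minus bLR (horizontal axis) for each gene from 4 limma fits: the deposited values, library depth as a covariate, the mean of the 20 microglia markers as a covariate, and without the 4 libraries rich in Ttr. Bars are 1 SE. With the microglia markers in the model C1qb moves from -0.42 to -0.28, and C1qtnf1 from -0.51 to -0.56.

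Markers of other immune cells were scarce. Border macrophage markers such as Mrc1 and Cd163 summed to 11.6 to 15.2 FPM in bHR and 9.66 to 18.6 in bLR, and 3 of 7 were lower in bHR. Blood leukocyte markers summed to 6.998 to 13.5 FPM in bHR and 9.27 to 19.3 in bLR, with 7 of 8 lower in bHR (median log2 difference -0.55). Of the 8, 3 had an unadjusted p under 0.05, all lower in bHR, and 0 were called (limma), against 9.36% and 0.445% of all genes. S100a8, Cd3g and Nkg7 were among the markers at 0 in some rats. Red blood cell markers were lower in bHR in 3 of 3 (median log2 difference -0.41), with 0 at an unadjusted p under 0.05 (limma). The part of these lists in the C1q difference was not tested.

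C1qtnf1, the secreted C1q-domain protein, had the largest difference of the 9. It stood at 6.78 to 8.41 FPM in bHR (median 7.06) and 8.67 to 11.4 in bLR (median 10.99), and every bHR rat lay below every bLR rat. The group means were 7.27 ± 0.626 (SD, n = 6) and 10.4 ± 1.22 FPM. C1qtnf1 was 1.43-fold higher in bLR (log2 difference -0.51, SE 0.11, limma adjusted p = 0.0377). It was the one member called in the models with the microglia markers (log2 difference -0.56, limma adjusted p = 0.0265, and 0.0347 with HR_26 left out as well). Over all genes those models called more, 420 and 315, against 93 without the markers.

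The C1qtnf1 call was also close to the threshold. It was lost without any one of HR_2, HR_10, HR_34, HR_38, LR_8, LR_16, LR_20, LR_32 or LR_44 (limma adjusted p from 0.0510 to 0.0997). With library depth in the model the difference was -0.53 (limma adjusted p = 0.106), and without the 4 libraries rich in Ttr -0.50 (limma adjusted p = 0.0528). Vascular markers mostly stood the same way. Endothelial markers were lower in bHR in 6 of 8 and summed to 83.5 to 100.4 FPM in bHR and 96.0 to 126.1 in bLR. Of the 8, 4 had an unadjusted p under 0.05 and 0 were called (limma), against 9.36% and 0.445% of all genes. Mural cell markers were lower in 7 of 9 and summed to 89.0 to 111 FPM in bHR and 88.7 to 123 in bLR. None of these 17 markers was at 0 in any rat, and their part in the C1qtnf1 difference was not tested. Once the line means were subtracted, C1qtnf1 had a Pearson r of 0.143 with the endothelial mean and 0.214 with the mural mean (Spearman rho 0.143 and 0.230, permutation adjusted p = 0.818 and 0.653 over 99 relations, n = 18 rats; r of 0.112 and 0.253 without the 2 rats farthest from the median).

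C3, the central component, spread widely within each line. It stood at 17.0 to 37.7 FPM in bHR (median 29.6) and 23.2 to 48.2 in bLR (median 30.5), and 5 of the 6 bLR rats lay within the bHR range. LR_20 was the highest rat and HR_2 the lowest. The log2 difference was -0.24 (SE 0.19, limma adjusted p = 0.756). With library depth in the model it was -0.07 (SE 0.19, limma adjusted p = 0.998), and without the libraries rich in Ttr -0.16 (SE 0.19, limma adjusted p = 0.833).

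The receptors were the least abundant members in reads, with 79 to 271 reads per library for C3ar1 and as few as 37 for C5ar1. Counting error alone is 8.19 to 16.4% of a C5ar1 value. C3ar1, the receptor for the C3 fragment, stood at 2.30 to 3.70 FPM in bHR (median 2.83) and 2.71 to 3.70 in bLR (median 3.06), with a log2 difference of -0.09 (SE 0.18, limma adjusted p = 0.928). C5ar1, the receptor for the C5 fragment, stood at 1.47 to 3.03 FPM in bHR (median 1.98) and 1.01 to 2.33 in bLR (median 1.99), with a log2 difference of 0.24 (SE 0.28, limma adjusted p = 0.863). Neither receptor separated the lines, and for both the SE exceeded the difference.

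Both regulators had higher means in bHR than in bLR, the opposite order to C1q, and neither passed. Serping1, the C1 inhibitor, stood at 12.5 to 20.1 FPM in bHR (median 14.1) and 10.04 to 17.98 in bLR (median 13.8), with a log2 difference of 0.17 (SE 0.18, limma adjusted p = 0.848). Cd59 stood at 227 to 390 FPM in bHR (median 295) and 231 to 356 in bLR (median 241), with a log2 difference of 0.19 (SE 0.14, limma adjusted p = 0.758). LR_48, at 356 FPM, lay apart from the other bLR rats (231 to 272), and HR_2 was the highest of all. Astrocyte markers stood higher in bHR in 9 of 9, 5 at an unadjusted p under 0.05 and 0 called (limma), against 9.36% and 0.445% of all genes. The 9 markers summed to 4826 to 6567 FPM in bHR and 4671 to 5272 in bLR. None of them was at 0 in any rat, and their part in the order of the regulators was not tested. The size of both differences varied with the model and the rats. With library depth as a covariate they were 0.08 for Cd59 and 0.07 for Serping1, and with the microglia marker mean 0.40 for Cd59 (SE 0.13, limma adjusted p = 0.0991). Without HR_2 they were 0.11 for Cd59 and 0.09 for Serping1, and over the 18 single rats left out they ranged from 0.11 to 0.28 and from 0.09 to 0.26.

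The comparisons with bIR ask where the cross lies between the bred lines. For C1qa, C1qb, C1qc, C3 and C1qtnf1 the order of the means was bHR, bIR, bLR. For Serping1 and Cd59 it was bLR, bIR, bHR, but without the libraries rich in Ttr bLR stood above bIR, by 0.26 for Serping1 and 0.21 for Cd59 on the log2 scale. C3ar1 was highest in bIR. C5ar1 had nearly equal means in bIR and bHR (2.15 and 2.11 FPM, 1.02 in both on the log2 scale). Against bHR, 0 of 9 members passed (limma, smallest adjusted p = 0.644), as against 0.00957% of all genes, and 1, C1qtnf1, had an unadjusted p under 0.05, against 5.81% of all genes. Against bLR, 0 of 9 passed (limma, smallest adjusted p = 0.614), with 0% of all genes, and 3, the C1q chains, had an unadjusted p under 0.05, against 7.29% of all genes. No member separated bIR from either line without overlap, against 0.268% of all genes with bHR and 0.507% with bLR. No member passed in the comparison of bIR with the midpoint of bHR and bLR (limma, smallest adjusted p = 0.919, 0 at an unadjusted p under 0.05), where 0.00478% of all genes were called and 5.63% had an unadjusted p under 0.05.

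C1qb in bIR ranged from 35.2 to 52.5 FPM with a median of 40.0, overlapping both lines. Its mean of 41.4 ± 6.01 (SD, n = 6) lay 0.19 above bHR (SE 0.09, limma adjusted p = 0.857) and 0.24 below bLR (SE 0.09, limma adjusted p = 0.614) on the log2 scale. IR_248 was the highest bIR rat in all 3 chains, with C1qa at 68.0, C1qb at 52.5 and C1qc at 35.3 FPM, levels within the bLR range. The other bIR rats ranged from 35.2 to 42.5 FPM in C1qb. IR_248 is a library rich in Ttr, and without the libraries rich in Ttr the bHR minus bIR differences of C1qa and C1qc, -0.12 and -0.10 on the log2 scale over all rats, were 0.03 and 0.02.

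C1qtnf1 in bIR ranged from 7.81 to 11.6 FPM with a median of 9.53. Its mean of 9.67 ± 1.55 (SD, n = 6) was nearer to bLR than to bHR, by 0.40 above bHR (SE 0.11, unadjusted p = 0.00157, limma adjusted p = 0.644) and 0.11 below bLR (SE 0.11, limma adjusted p = 0.877) on the log2 scale. Without the libraries rich in Ttr the bLR minus bIR difference was -0.03, so bIR then stood above bLR. Of the 6 bHR rats, 5 lay below every bIR rat. For C3, the bIR rats ranged from 23.3 to 40.3 FPM, for C5ar1 from 1.01 to 3.17 and for Cd59 from 208 to 358, in each case overlapping both lines. IR_213, rich in Ttr, held the highest level of all rats in C3ar1 (5.36 FPM) and in Serping1 (24.2 FPM).

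Levels of the C1q chains followed each other from rat to rat. Correlations were computed over the 18 rats on log2 values once each line's mean was subtracted, and p-values come from permuting rats within lines, adjusted over 36 pairs. All values of a rat come from 1 library, so its depth and composition are shared. C1qb with C1qc gave a Pearson r of 0.867 and a Spearman rho of 0.816 (permutation adjusted p = 0.00252 and 0.00234, r = 0.790 without IR_248 and IR_293, the rats farthest from the median of C1qb). C1qa with C1qc gave an r of 0.843 and a rho of 0.862 (permutation adjusted p = 0.00270 and 0.00180, r = 0.798 without LR_16 and IR_293). C1qa with C1qb gave an r of 0.741 and a rho of 0.680 (permutation adjusted p = 0.0179 and 0.0472, r = 0.634 without LR_16 and IR_293).

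Outside the chains 1 further pair passed, C1qb with Cd59 (r = 0.678, rho = 0.666, permutation adjusted p = 0.0294 and 0.0505, r = 0.579 without IR_248 and IR_293). Without those rats the permutation adjusted p of this pair was 0.135, and for C1qa with C1qb it was 0.135 without LR_16 and IR_293. Without the libraries rich in Ttr neither pair passed (permutation adjusted p = 0.105 for C1qb with Cd59 and 0.111 for C1qa with C1qb), and both pairs with C1qc did. No relation of C3 or C3ar1 with the C1q genes passed, with r between -0.11 and 0.21 for C3 and between -0.06 and 0.05 for C3ar1. C1qtnf1 had an r of -0.41 with C1qb (rho = -0.37, permutation adjusted p = 0.350 for r) and of -0.66 with Cd59 (rho = -0.60, permutation adjusted p = 0.0770 for r), both negative and neither past adjustment.

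**Figure D3:**
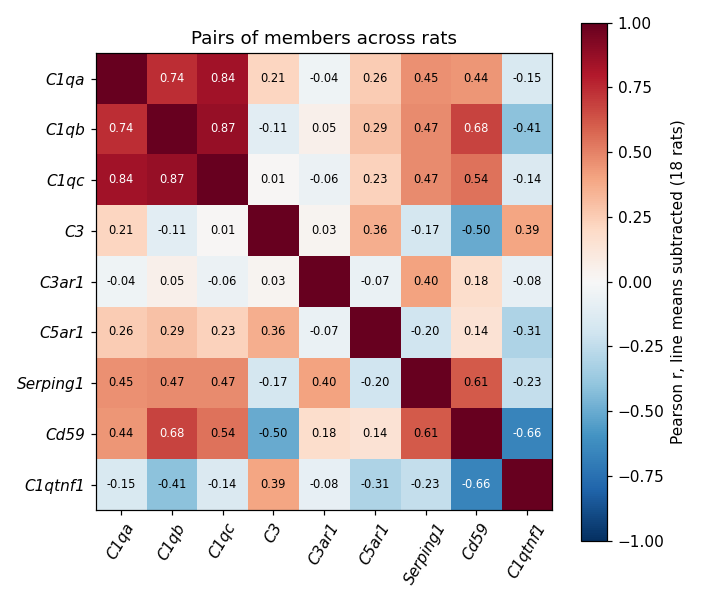
Pearson r between pairs of the 9 genes across 18 rats (rows and columns are genes, colour from -1 to 1, values printed), with each line's mean subtracted. The C1qa, C1qb and C1qc block holds values from 0.74 to 0.87.

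Relations with cell type marker means, 99 in all and chosen after seeing the data, were read the same way. C1qb followed the microglia mean (r = 0.732, rho = 0.829, permutation adjusted p = 4.95e-04 and 9.90e-04, r = 0.737 without HR_26 and LR_16). The unadjusted p of this r, 1.00e-05, is the smallest that 100000 permutations can give. For C1qc the r was 0.591 (rho = 0.705, permutation adjusted p = 0.0570 and 0.0498) and for C1qa 0.478 (rho = 0.620, permutation adjusted p = 0.242 for r), with 0.669 and 0.594 without HR_26 and LR_16. C1qtnf1 and C3 had an r of -0.217 and 0.005 with that mean. For C1qa, C1qb and C1qc the r with the border macrophage mean was 0.482, 0.384 and 0.558. With the blood leukocyte mean it was 0.527, 0.238 and 0.332. None of these passed (smallest permutation adjusted p = 0.242 for r), but for C1qa both were as large as its r with the microglia mean.

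Cd59 ran opposite to neuronal markers: its r with the mean of the 10 hippocampal neuron markers was -0.902 (rho = -0.895, permutation adjusted p = 4.95e-04 and 9.90e-04, r = -0.891 without HR_2 and HR_26). It also followed the microglia mean (r = 0.644, rho = 0.664, permutation adjusted p = 0.0436 and 0.0579), with an r of 0.588 and a permutation adjusted p of 0.226 without HR_26 and LR_16. Serping1 had an r of -0.690 with the neuronal mean (rho = -0.676, permutation adjusted p = 0.0370 and 0.0600), with an r of -0.671 and a permutation adjusted p of 0.226 without HR_2 and HR_26. Its r with the meningeal fibroblast mean was 0.659 (rho = 0.614, permutation adjusted p = 0.0919 for r, r = 0.751 without the 2 rats farthest from the median). With the border macrophage mean the r of Serping1 was 0.646 (rho = 0.641, permutation adjusted p = 0.0686 for r, r = 0.561 without LR_32 and LR_44). The C1q chains also ran opposite to the neuronal mean, with an r of -0.608 for C1qb, -0.517 for C1qc and -0.395 for C1qa. None of these passed (smallest permutation adjusted p = 0.107 for r). On the log2 scale the neuronal mean was lowest in bHR (7.56 ± 0.26, SD, n = 6), then bIR (7.67 ± 0.18) and bLR (7.76 ± 0.12). Its part in the line means of Cd59, Serping1 and the C1q chains was not tested.

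**Figure D4:**
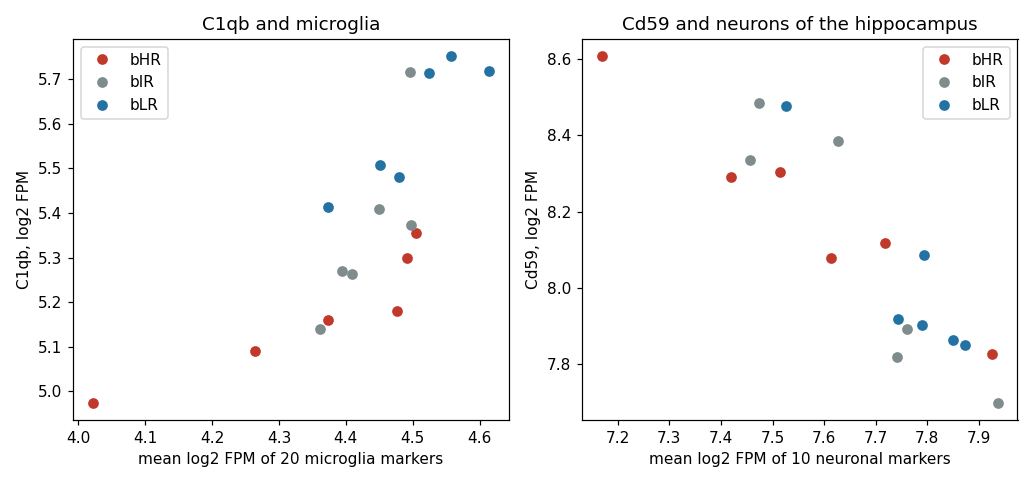
Left, C1qb (log2 FPM) against the mean log2 FPM of 20 microglia markers; right, Cd59 against the mean of 10 neuronal markers; each point is 1 rat, coloured by line. C1qb rises with the microglia mean, while Cd59 falls along the neuronal mean in all lines. In C1qb every bLR rat lies above every bHR rat.

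The genes most alike in pattern, by Pearson r over the 18 rats after subtracting line means among 12952 genes, are given as a description. For the mean of the C1q chains they were Slc35b3 (r = 0.878), Tmem205 (0.853), Stk16 (0.811), Susd3 (0.809), Mrpl24 (0.805), Bcl2a1 (0.802), Rars (0.801) and Rarres2 (0.801). None of these 8 is among the microglia markers, and Rarres2, which encodes the chemoattractant chemerin, had the largest line difference among them (log2 difference -0.31, SE 0.15, limma adjusted p = 0.541). Serping1 was most like Fgl2 (r = 0.932), the matrix proteoglycan gene Bgn (0.912) and Serpinf1 (0.895). Cd59 was most like Sdhc (0.963), Laptm4a (0.963) and Etfa (0.953), C3 like Sik1 (0.910), Srp72 (0.831) and Spg11 (0.829), and C1qtnf1 like Hook3 (0.884), Dnmt3a (0.855) and Atxn7l3 (0.844). The receptors had looser matches: Hipk1, Wdr63 and Wdr27 for C3ar1 (0.773 to 0.797) and Npepo, Crb1 and Kirrel2 for C5ar1 (0.691 to 0.732).

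The rest of the complement system was read from 4 lists that hold 53 symbols, of which 46 were measured outside the 9 members. Cd59b, among the symbols not measured, is the GRCr8 symbol of the member Cd59. Between bHR and bLR 0 of the 46 passed (limma, smallest adjusted p = 0.265), against 0.445% of all genes. An unadjusted p under 0.05 was found in 4, with 3 of them lower in bHR, against 9.36% of all genes (5.16% lower). The median log2 difference of the 46 was -0.05, with 26 lower and 20 higher in bHR. In the classical and lectin pathway 7 of 10 were lower in bHR, among them Masp1, a protease of the lectin pathway, at 32.8 ± 2.48 FPM (SD, n = 6) in bHR and 39.2 ± 4.75 for bLR rats (log2 difference -0.25, SE 0.08, limma adjusted p = 0.265). C1r, the protease that C1q carries, had a log2 difference of 0.23 (SE 0.20, limma adjusted p = 0.795). C4a and C4b are near-identical copies, so reads of either are uncertain.

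Alternative and terminal pathway genes were split, 4 of 9 being lower and 5 higher in bHR. C5 rested on 1 to 21 reads per library (log2 difference 1.45, SE 0.62, limma adjusted p = 0.451), and Cfd, factor D, had a log2 difference of -0.41 (SE 0.36, limma adjusted p = 0.803). Among further regulators 8 of 16 were lower and 8 higher. Clusterin (Clu), which binds the terminal complex, stood at 1487 ± 186 FPM (SD, n = 6) in bHR against 1291 ± 88.1 FPM for bLR (log2 difference 0.20, SE 0.11, limma adjusted p = 0.638). Srpx2, an inhibitor of C1q, rested on 1 to 27 reads (log2 difference 1.01, SE 0.60, limma adjusted p = 0.660).

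Receptors and C1q partners were lower in bHR in 7 of 11. Itgb2, the beta chain shared by complement receptors 3 and 4, stood at 8.15 ± 1.07 FPM (SD, n = 6) in bHR and 9.96 ± 1.75 for bLR rats (log2 difference -0.28, SE 0.11, limma adjusted p = 0.406). Itgax, the alpha chain of receptor 4, had 0 to 37 reads per library (log2 difference -1.94, SE 0.85, limma adjusted p = 0.471). Other genes with a C1q domain were lower in bHR in 13 of 22, with 0 called and a median of -0.04. C1ql2, a synaptic organiser of dentate granule cells, stood at 26.7 ± 11.003 FPM in bHR (SD, n = 6) against 39.2 ± 7.09 for bLR (limma adjusted p = 0.212), and Mmrn2, an endothelial matrix protein, at 3.34 ± 0.549 and 4.44 ± 0.870 (limma adjusted p = 0.508).

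**Figure D5:**
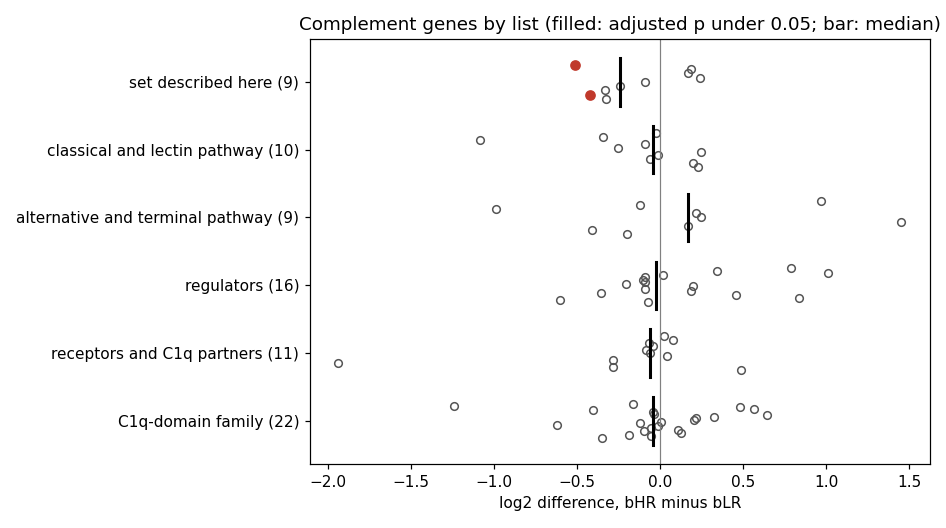
Log2 difference of bHR minus bLR (horizontal axis) for the 9 genes of the set and for 5 further lists, with the number measured in brackets. Each circle is 1 gene, filled where the limma adjusted p is under 0.05, and the bar is the list's median. Filled circles appear for C1qb and C1qtnf1.

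Whether the genes follow anxiety-like behaviour among rats of a line was read by adding the share of maze time spent on the open arms to the 3 line means, as 1 slope shared by the lines. None of the 9 members passed (limma, smallest adjusted p = 0.999, 0 at an unadjusted p under 0.05). Over all genes 0% were called and 4.34% had an unadjusted p under 0.05. The maze was run at P65 to P75 for bIR, and at P160 to P167 for bHR and bLR.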

How the data were processed

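Values come from 1 table of 18 libraries, 1 per rat. The authors made stranded polyA libraries from RNA with an integrity number above 8, per the labels' protocols. Per the submitters' processing notes they used Subread with Rnor_6.0, featureCounts, and limma in R 3.2.2. The deposited log2 values (log2 FPM) carry an offset of 0.5 reads. By the series' design text a gene needed 10 counts or more in 4 or more samples, but 1258 genes of the table are below that in the recovered reads. Tool versions other than that of R: not given in the sources used here. Taking each column's lowest value as 0 reads gave whole reads (tolerance 0.02) for 100% of 376362 values. FPM is the recovered reads over the constant of each library, without the offset of 0.5 reads.

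Lines and rat numbers were read from the sample titles. Tests used limma 3.58.1 in R 4.3.3: 3 line means over 18 rats, empirical Bayes with a trend, two-sided, Benjamini-Hochberg over 20909 genes, adjusted p under 0.05. The fits were tested on simulated reads. Alternatives covered filters, scalings, offset, variance models, covariates and left-out libraries. Named beside the members are the 2 genes of smallest p in each complement list and the genes most alike in pattern. The microglia, vascular and other markers named, Spi1 and Rarres2 among them, were chosen after their values were seen. The members and lists were chosen with earlier results of these data known. Symbols of 8 members matched the GRCr8 gene table directly and 1 (Cd59) by synonym. The labels do not say whether rats shared a litter or lane.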

Additional observations from a re-analysis of the deposited data

Results flagged for a closer look

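C1qc in IR_248 stood at 35.3 FPM, apart from the other bIR rats, whose highest was IR_213 at 26.9 FPM, with a gap to the nearest rat that was large for the range of the line (Dixon's ratio of 0.646, above the 95% critical value). Of 27 groups of 6 rats tested, 1 was marked in this way, and chance marks about 1 in 20.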

How the results depend on the processing

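No paired analysis was possible because the lines share no rat numbers. The count of members called between bHR and bLR, 2, was 1 with quantile normalization (C1qtnf1), voom weights (C1qb), without the libraries rich in Ttr (C1qb) and with the microglia mean in the model with or without HR_26 (C1qtnf1). It was 0 without the variance trend (limma adjusted p = 0.0860 for C1qb and 0.0557 for C1qtnf1) and with depth as a covariate, and 0 to 2 without single rats. Its cause was not tested. All 9 members kept their sign between bHR and bLR in every setting and without any single rat, except C3ar1 with the microglia mean (0.0545, and 0.0579 without HR_26). Over all genes the 93 calls became 194 with array weights, 41 with depth, 420 with the microglia mean (315 without HR_26), and 46 to 138 without single rats. Against bIR, the 2 genes called with bHR became 6 with array weights, 4 with the microglia mean and 2 to 4 without single rats. The 0 called with bLR became 2 with either filter, 1 with median centring, voom weights or only the lines compared, 3 with array weights or the microglia mean, and 0 to 2 without single rats, while the members called stayed at 0.

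Signs turned in small differences with bIR, none of them called. Without the libraries rich in Ttr the bHR minus bIR difference was 0.0252 for C1qa and 0.0198 for C1qc, and the bLR minus bIR difference 0.259 for Serping1, 0.213 for Cd59 and -0.0301 for C1qtnf1. The bHR minus bIR difference of C3 was 0.0395 with array weights and 0.0309 with depth, and that of C5ar1 -0.0107 with voom weights. Without single rats these ranged from -0.186 to 0.0444 for C3, -0.193 to 0.136 for C5ar1, and for bLR minus bIR from -0.161 to 0.0727 for C3ar1 and -0.150 to 0.0945 for Serping1. Of 4 member pairs and 4 relations with marker means, 2 and 2 passed without the libraries rich in Ttr, where fewer rats remain. Without the 2 farthest rats 2 relations with marker means passed. The reads limit C5ar1 most.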
